A study of Mus musculus with 5 samples.

Results

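The genes described here encode the protein machinery of pre-mRNA splicing and the heterogeneous nuclear ribonucleoproteins (hnRNPs), measured in satellite cells of dystrophic and healthy mouse muscle. They were chosen by symbol alone: protein-coding genes off chromosomes X and Y whose symbols begin with Srsf, Hnrnp, Sf3a, Sf3b, Snrp, Prpf or U2af, with a number where that naming uses one. This gave 67 of the 22683 genes measured, namely 19 hnRNPs, 13 PRPF genes, 12 Sm and U snRNP protein genes, 11 SR protein genes, 9 SF3a and SF3b genes and 3 U2AF genes. Hnrnph2 was left out because it lies on chromosome X. Satellite cells are muscle stem cells, which lie at rest beside the fibre until injury. The mdx group comprised 3 libraries of quiescent satellite cells from mice labelled as muscular dystrophy (mdx), a model with a mutation in the dystrophin gene Dmd, and the wild type group 2 libraries of the same labelled cells. All 5 libraries were made with a stranded total RNA kit from 10000 to 20000 cells sorted by flow cytometry, and the labels name no treatment, transgene or further allele. The sources used here do not give age, sex, strain, muscle, the sorting gate or whether each library came from its own animal. P-values therefore reflect variation among these libraries only, and it may be technical.

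Introns are removed by the spliceosome, which assembles on each intron from small nuclear ribonucleoproteins (snRNPs) built on a ring of Sm proteins. U1 snRNP recognises the 5′ splice site, U2AF and the SF3a and SF3b complexes of U2 snRNP the 3′ end of the intron, and the tri-snRNP with its PRPF proteins then forms the catalytic core. SR proteins mostly promote, and many hnRNPs mostly repress, the use of splice sites near the RNA sequences they bind, and several of both classes limit their own level by splicing in an exon that leads to decay of the transcript. Satellite cells depend on regulated splicing as they leave the resting state and build muscle.

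Splicing factor and hnRNP transcripts were, on balance, lower in mdx cells than in wild-type cells. Of the 67 members, 23 fell, 7 rose and 37 did not pass the test (limma on log2 values, adjusted p under 0.05). Among all 18199 genes tested the lower calls made up 10.3% and the higher calls 14.6%, against 34.3% and 10.4% of the members. Among the 13334 tested genes of the same kind, protein-coding and off chromosomes X and Y, these shares were 9.96% and 18.4% (28.4% in either direction). The median log2 fold change, mdx over wild type, was −0.47 over the members and 0.13 over all tested genes. For 30 members every mdx library was lower than either wild-type library, and for 13 every mdx library was higher. No overlap occurred in these directions for 23.8% and 28.2% of all tested genes. All 67 members passed the filter on low values, Snrpf, Snrpn and U2af1l4 only through mdx libraries and Srsf12 only through wild-type libraries. In CPM, that is, with equal library totals, 17 members were lower and 8 higher, against 7.39% and 15.4% of all genes. After quantile normalization 19 were lower and 8 higher (10.5% and 13.9% of all genes), and of the 64 members with a mean of at least 50, 24 were lower and 8 higher (15.1% and 19.7%). Leaving out mdx 1, 2 or 3 left 17, 19 or 18 lower and 2, 1 or 1 higher calls among the members. Over all genes it left 1266, 1186 or 1112 lower and 1709, 1491 or 1450 higher calls. With every library these were 1868 and 2659, so calls over all genes became fewer in both directions too.

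**Figure D1:**
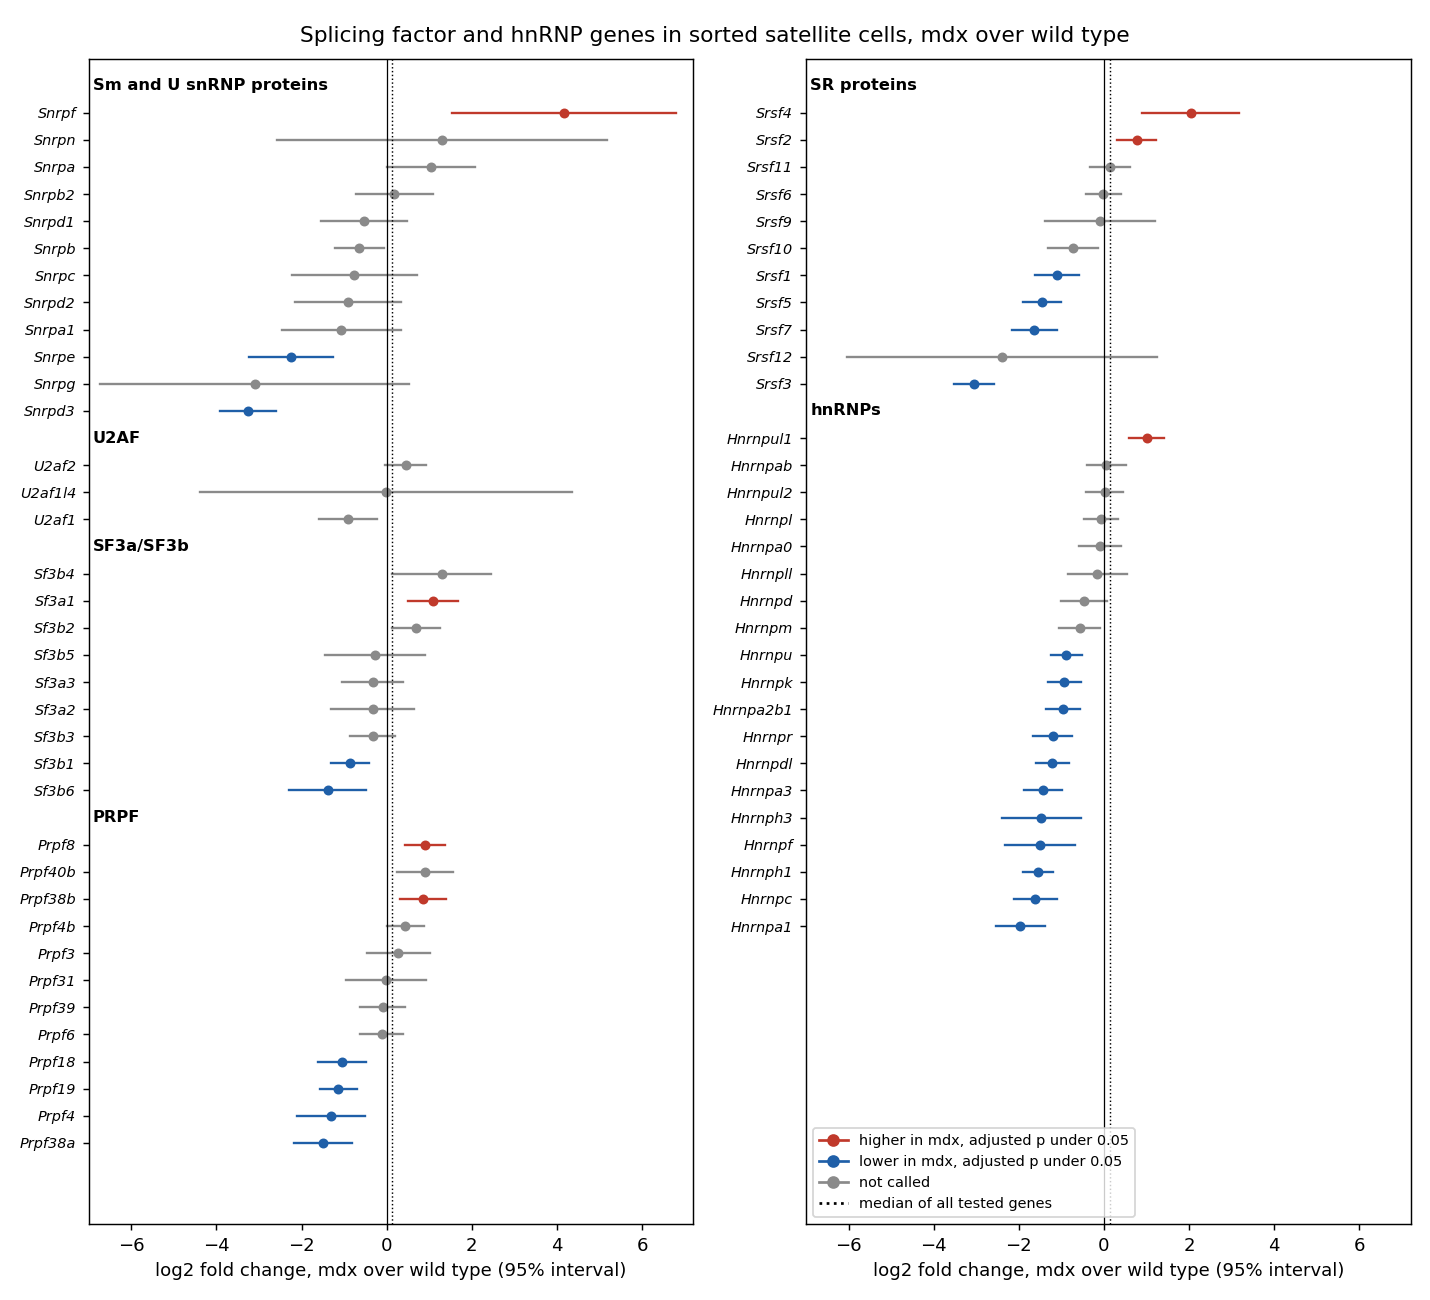
Log2 fold change of the members, 1 not shown, mdx over wild type (x axis), with its 95% interval from limma, by gene family. The solid line marks no change and the dotted line the median of all tested genes (0.13). Blue points (23) fell, red points (7) rose and grey points were not called. The blue points cluster among the hnRNPs (11 of 19, 57.9%, against 10.3% of all tested genes).

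The deposited normalized counts summed to 12473348 to 15930638 per mdx library and 15217054 to 16825045 per wild-type library. Mitochondrial ribosomal RNA mt-Rnr2 alone took 22.3% of the total in mdx 1. Dmd had 4642, 4116 and 3700 normalized counts in mdx libraries, against 11826 and 9266 in wild-type libraries. Xist had 0, 0 and 12 normalized counts in mdx libraries, against 30235 and 30176 in wild-type libraries, and the Y-linked gene Ddx3y had 966, 946 and 827, against 9 and 0. Genotype and sex therefore cannot be told apart in any result below. Markers of other cells moved with genotype. Of 15 endothelial markers 14 rose and 1 fell, with a summed level of 25063 to 33605 in mdx libraries and 3101 to 3613 in wild-type libraries, where Cldn5, Emcn, Erg and Ptprb were at 0. Of 15 macrophage markers 12 rose, with sums of 11039 to 16492 in mdx and 456 to 693 in wild type, where C1qa, C1qb, C1qc, Cx3cr1, Itgam and Mrc1 were at 0. Of 14 fibro-adipogenic markers 13 rose and 1 fell, with sums of 88078 to 149515 in mdx and 18433 to 26824 in wild type, where Cd248, Dpp4, Mfap5 and Postn were at 0. Of 16 satellite cell markers 4 rose and 7 fell, with sums of 57544 to 81077 in mdx and 119905 to 130663 in wild type, and none was at 0 in either group. The part of these cells in the results on splicing genes was not tested. In such bulk samples, fewer cells of a type and less RNA per cell cannot be told apart.

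The sequences of 4 promoter windows are shown, each of a gene with 1 window in RefSeq. They are of the called genes with the steepest fall among the Sm, SR and hnRNP genes (Snrpd3, Srsf3 and Hnrnpa1) and of the hnRNP gene that rose (Hnrnpul1). Each runs from 250 bases before to 50 bases after the RefSeq start (GRCm38.p6). The Snrpd3 window lies wholly inside the deposited span of that gene, which begins upstream of it at 75517551. Capitals mark matches, on either strand, to the CCAAT box (CCAAT, or ATTGG on the other strand) and, in Srsf3, the TATA box (TATAAA).
Snrpd3 (chr10:75517792-75518091, plus strand): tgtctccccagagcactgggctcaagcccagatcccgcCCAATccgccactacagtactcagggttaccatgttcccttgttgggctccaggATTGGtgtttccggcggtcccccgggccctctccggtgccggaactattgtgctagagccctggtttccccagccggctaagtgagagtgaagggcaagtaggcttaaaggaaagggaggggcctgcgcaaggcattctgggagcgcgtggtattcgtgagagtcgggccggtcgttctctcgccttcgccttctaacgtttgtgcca
Srsf3 (chr17:29032410-29032709, plus strand): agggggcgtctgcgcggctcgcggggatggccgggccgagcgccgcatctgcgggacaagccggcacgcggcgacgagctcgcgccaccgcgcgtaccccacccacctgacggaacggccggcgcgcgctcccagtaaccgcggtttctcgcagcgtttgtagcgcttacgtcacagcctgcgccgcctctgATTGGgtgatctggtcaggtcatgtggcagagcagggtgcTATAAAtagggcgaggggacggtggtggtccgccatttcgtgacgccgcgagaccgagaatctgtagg
Hnrnpa1 (chr15:103240147-103240446, plus strand): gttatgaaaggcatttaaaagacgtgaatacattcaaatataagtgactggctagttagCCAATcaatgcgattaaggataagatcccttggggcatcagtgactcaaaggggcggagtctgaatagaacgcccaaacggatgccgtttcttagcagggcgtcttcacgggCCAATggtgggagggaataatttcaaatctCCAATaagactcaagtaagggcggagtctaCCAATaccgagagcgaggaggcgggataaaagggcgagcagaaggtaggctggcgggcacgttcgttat
Hnrnpul1 (chr7:25754710-25755009, minus strand): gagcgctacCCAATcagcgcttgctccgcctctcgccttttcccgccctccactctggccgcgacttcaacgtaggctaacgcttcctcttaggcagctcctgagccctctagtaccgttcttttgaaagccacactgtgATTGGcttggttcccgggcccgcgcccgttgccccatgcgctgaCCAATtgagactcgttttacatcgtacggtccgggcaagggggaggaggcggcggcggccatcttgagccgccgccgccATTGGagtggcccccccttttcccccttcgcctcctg
The fallen genes and the risen one thus shared the CCAAT box, and the Srsf3 window alone of these 4 held a TATA box. Over the 58 members with a window, 29 held CCAAT on either strand (50%, against 41.1% of 27025 genes). It was found in 13 of the 22 fallen, 5 of the 7 risen and 11 of the 29 members not called. The letters CCGGAAGT, bound by ETS factors, were found in 11 of the 58 (19.0%, against 4.31% of all genes), of which 3 fell and 2 rose. TATAAA occurred in 7 members (12.1%, against 15.7%), of which 1 fell and 1 rose. The NRF1 motif was found in 1 member (1.72%, against 1.07%). Both strands were searched, and a match is a description of the sequence only. The 27025 genes were not limited to protein-coding ones and had 32851 windows, while the 58 members had 79. The percentages therefore differ in gene class and in length searched.

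The Sm core, the ring of proteins around each spliceosomal RNA, held the steepest fall. Of its 8 genes, 2 fell (25%), 1 rose (12.5%) and 5 were not called, against 10.3% lower and 14.6% higher of all tested genes. The median log2 fold change of the 8 genes was −0.78. Snrpd3, encoding SmD3 (chromosome 10, 75517551 to 75537381, mm10, plus strand), had 218, 197 and 262 normalized counts in mdx libraries, against 1960 and 2394 in wild-type libraries. All mdx libraries were low and no value came near the wild-type pair. It fell by 3.26 on the log2 scale (SE 0.29, limma adjusted p = 0.000116), and the call held in all 14 alternatives. Its exons overlap those of Gucd1 on the opposite strand, which had 334, 337 and 288 in mdx and 76 and 117 in wild type.

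Snrpe, encoding SmE, had 97, 160 and 199 normalized counts in mdx libraries, against 605 and 808 in wild-type libraries. The groups stood apart, with a log2 fold change of −2.25 (SE 0.44, limma adjusted p = 0.00651). With each library's trend in transcript length and GC content removed, the Snrpe value was −1.01 and no longer called (limma adjusted p = 0.135). This length and GC correction moved the median of all genes by −0.48 on the log2 scale, to −0.35. Values given under it below include that shift, and the test is still against no change. Over all genes it gave 3225 lower and 1459 higher calls, against 1868 and 2659 without it. Snrpe has the shortest transcript of all members, at 503 bases.

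Snrpf, encoding SmF, went the other way, with 93, 67 and 128 normalized counts in mdx libraries and 12 and 0 in wild-type libraries. Every cell needs SmF, so the 0 says only that the gene was listed at 0 in that library. Snrpf passed the filter on low values only through the mdx libraries, where it is high. Its call as higher came with a fitted log2 fold change of 4.16 (SE 1.17, limma adjusted p = 0.0306). That value depends on the added constant, being 5.22 with 0.5 in place of 2 (limma adjusted p = 0.054). The call was also lost with mdx 1, 2 or 3 left out (limma adjusted p = 0.100, 0.0842 and 0.117) and after quantile normalization (0.0527). Its exons overlap Ccdc38 on the opposite strand, which had 34, 29 and 25 in mdx and 5 and 0 in wild type. The strand setting of the counting is not given, so reads of these overlapping genes cannot be told apart.

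Snrpg, encoding SmG, was listed at 98, 0 and 94 in mdx libraries and at 148 and 349 in wild-type libraries. The 0 in mdx 2 gave a wide interval for its log2 fold change (−6.73 to 0.53), which was not called (limma adjusted p = 0.190). Without wild type 1 the Snrpg value was −3.71. Fits without wild type 1 or 2 leave 1 library in that group, assumed to vary like the mdx libraries. Calls in such fits, here and below, are therefore less certain than those of the main fit. Snrpb, the most abundant Sm gene per transcript length after Snrpe in wild type, had 714, 876 and 942 normalized counts in mdx libraries, against 1567 and 1095 in wild-type libraries. These groups did not overlap, but the log2 fold change of −0.64 did not pass (limma adjusted p = 0.0998). Snrpb passed with wild type 2 left out (−0.90, limma adjusted p = 0.0327) and after the length and GC correction (−1.13, 0.0134), while with wild type 1 left out its value was −0.38 (0.424). Snrpd1 and Snrpd2, for SmD1 and SmD2, had log2 fold changes of −0.53 and −0.91 and were not called.

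Snrpn encodes SmN, which takes the place of SmB in the ring in some tissues and comes from an imprinted locus. It had 56, 0 and 57 normalized counts in mdx libraries and 10 and 3 in wild-type libraries, and was not called (limma adjusted p = 0.617). Per transcript length, Snrpn made up 4.20%, 0% and 3.27% of Snrpn plus Snrpb in mdx, against 0.356% and 0.153% in wild type. The groups overlapped because of the 0 in mdx 2, and the exact two-sided permutation test gave p = 0.40, where 10 splits allow no p below 0.10. Snrpn shares exons on its own strand with the annotated gene Gm38393, so its counts are uncertain.

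The proteins specific to U1 and U2 snRNP were not called. Snrpa, for the A protein of U1, had 365, 335 and 465 normalized counts in mdx libraries and 288 and 120 in wild-type libraries. The mdx values were higher without overlap, with a log2 fold change of 1.04 (limma adjusted p = 0.132), which passed without wild type 1 (1.66, limma adjusted p = 0.0118). Without wild type 2 the Snrpa value was 0.41. After the length and GC correction it was 0.51 (limma adjusted p = 0.434), with the median of all genes at −0.35. Snrpc, of U1, and Snrpa1 and Snrpb2, of U2, had log2 fold changes of −0.76, −1.06 and 0.18, with overlapping groups.

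The U2AF genes, whose products bind the 3′ end of introns as a pair, were not called. U2af1, for the small subunit that reads the 3′ splice site, had 419, 405 and 336 normalized counts in mdx libraries, against 823 and 635 in wild-type libraries. U2af2, for the large subunit that reads the polypyrimidine tract, had 1715, 1525 and 1786 in mdx libraries, against 1381 and 1092 in wild-type libraries. Neither gene's groups overlapped. The log2 fold changes were −0.91 for U2af1 (limma adjusted p = 0.0566) and 0.44 for U2af2 (limma adjusted p = 0.158). U2af1 passed with the filter at a mean of at least 50 (limma adjusted p = 0.0471) and after the length and GC correction (0.0431). That correction turned U2af2 to −0.06 (limma adjusted p = 0.846), with the median of all genes at −0.35. Without wild type 2 the U2af2 value was 0.28 (0.544). U2af1l4, a relative of U2af1, varied from 0 to 82 within mdx and from 1 to 77 within wild type.

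Over all tested genes 10.3% were lower and 14.6% higher. Of the SF3 genes, whose products hold U2 snRNP on the branch point, 2 fell (22.2%), 1 rose (11.1%) and 6 were not called. Sf3b1, the large SF3b scaffold, is the most abundant of them per transcript length in wild type, with 1624 normalized counts per kilobase, while in mdx Sf3b2 stood at 972 and Sf3b1 at 904. It had 5549, 6841 and 4405 normalized counts in mdx libraries, against 10227 and 9891 in wild-type libraries. The wild-type pair lay above all mdx libraries, with a log2 fold change of −0.87 (SE 0.20, limma adjusted p = 0.0134). The call was lost with mdx 1 left out (limma adjusted p = 0.0763) or mdx 3 (0.0561), in CPM (0.0914), and after quantile normalization (−0.30, 0.342).

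Sf3b6, encoding p14, which touches the branch point region, had 187, 423 and 384 normalized counts in mdx libraries, against 859 and 780 in wild-type libraries. It fell by 1.39 on the log2 scale (SE 0.40, limma adjusted p = 0.0344). This call did not hold without mdx 1, 2 or 3 (limma adjusted p = 0.0602, 0.064 and 0.0865) or in CPM (0.0935).

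Sf3a1, the largest SF3a subunit, rose, with 1350, 1815 and 2113 normalized counts in mdx libraries and 939 and 705 in wild-type libraries. The mdx values spread over a wide range but stayed above wild type, with a log2 fold change of 1.09 (SE 0.26, limma adjusted p = 0.0162). With mdx 2 or 3 left out Sf3a1 lost its call (limma adjusted p = 0.0783 and 0.0806). After the length and GC correction the Sf3a1 value was 0.25 (0.487), with the median of all genes at −0.35. Sf3b2, a scaffold partner within SF3b, had 2597, 3085 and 3715 in mdx and 2440 and 1536 in wild type. Its log2 fold change of 0.68 did not pass (limma adjusted p = 0.0775), but did without wild type 1 (1.01, 0.00108) and after quantile normalization (0.82, 0.0425). Without wild type 2 the Sf3b2 value was 0.34. The length and GC correction turned Sf3b2 to −0.04 (limma adjusted p = 0.904), with the median of all genes at −0.35. Sf3b4, for the SF3b subunit SAP49, had 260, 163 and 316 in mdx and 110 and 84 in wild type, with a log2 fold change of 1.29 that did not pass (limma adjusted p = 0.100) and was 0.77 after that correction (0.280). The groups overlapped for the other SF3a subunits Sf3a2 and Sf3a3 and for Sf3b3 and Sf3b5, whose log2 fold changes lay between −0.33 and −0.28. After the correction, with the median of all genes at −0.35, Sf3a2 and Sf3b3 were called lower (−1.63 and −1.11, limma adjusted p = 0.0226 and 0.00655).

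Among the 13 PRPF genes 4 fell (30.8%), 2 rose (15.4%) and 7 were not called. Over all tested genes 10.3% were lower and 14.6% higher, so the risen share was near that of all genes. The median log2 fold change of the PRPF genes was −0.02. Their summed normalized counts were 18053 to 19702 in mdx libraries and 17435 to 17990 in wild-type libraries. Prpf8, encoding the scaffold around the catalytic RNA core, is the most abundant of them by counts. Its normalized counts were 6100, 7200 and 7770 in mdx libraries, against 4532 and 3088 in wild-type libraries. All mdx libraries were high, with a log2 fold change of 0.90 (SE 0.21, limma adjusted p = 0.0133). Prpf8 lost its call when mdx 1, 2 or 3 was left out (limma adjusted p = 0.0518, 0.0747 and 0.081). After the length and GC correction Prpf8 turned to −0.17 (limma adjusted p = 0.542), with the median of all genes at −0.35.

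Prpf4, for a protein of the U4/U6 particle, fell, with 305, 423 and 258 normalized counts in mdx libraries and 974 and 654 in wild-type libraries (log2 fold change −1.31, SE 0.35, limma adjusted p = 0.026). The fall was not called without mdx 1 (0.0876), mdx 3 (0.090) or wild type 1 (0.101), nor in CPM (0.0762). Prpf3, its partner on that particle, and Prpf31 and Prpf6, which hold the tri-snRNP together, had log2 fold changes of 0.27, −0.02 and −0.12, with overlapping groups.

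The paralogs Prpf38a and Prpf38b separated. Prpf38a, a protein of the spliceosome before activation, had 366, 417 and 382 normalized counts in mdx libraries, against 880 and 1363 in wild-type libraries (log2 fold change −1.49, SE 0.30, limma adjusted p = 0.00706). Prpf38b had 1277, 1599 and 1184 in mdx libraries, against 808 and 676 in wild-type libraries (log2 fold change 0.86, SE 0.24, limma adjusted p = 0.0292). Both pairs of groups were free of overlap, in opposite directions. The call of Prpf38a held without mdx 1, 2 or 3, while that of Prpf38b was lost in each of these fits (limma adjusted p = 0.0767, 0.0906 and 0.0638). Without wild type 2 the Prpf38b value was 0.73. After the length and GC correction Prpf38b was at 0.45 and not called (0.170), with the median of all genes at −0.35.

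Prpf19, the ubiquitin ligase that gives its name to the complex activating the spliceosome, had 1080, 1230 and 1235 normalized counts in mdx libraries, against 2470 and 2712 in wild-type libraries. Replicates were close within both genotypes, and the gene fell by 1.13 on the log2 scale (SE 0.20, limma adjusted p = 0.00359). Prpf18, which acts at the second step of splicing, had 807, 750 and 958 in mdx libraries and 1453 and 2076 in wild-type libraries (log2 fold change −1.06, limma adjusted p = 0.0146). The Prpf18 call was lost without mdx 1, mdx 2 or wild type 2 (limma adjusted p = 0.0653, 0.0664 and 0.0676).

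Prpf40b, a relative of a U1-associated protein of yeast, had 770, 865 and 741 normalized counts in mdx libraries and 345 and 517 in wild-type libraries. Its log2 fold change of 0.90 was just outside the threshold (limma adjusted p = 0.0503) and inside it without wild type 2 (0.0131) and in 4 other alternatives. Without wild type 1 the Prpf40b value was 0.61 (0.223), and the length and GC correction turned it to −0.24 (0.595). Prpf4b, a kinase of the spliceosome, had 2841, 2728 and 2417 in mdx and 2194 and 1752 in wild type and was not called (log2 fold change 0.44, limma adjusted p = 0.132). Its value was 0.28 without wild type 2 (0.505) and turned to −0.35 after that correction (0.165). Prpf39, a relative of another U1-associated protein of yeast, had a log2 fold change of −0.10. After the correction, with the median of all genes at −0.35, Prpf39 was at −0.84 and was called lower (limma adjusted p = 0.0243).

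SR proteins carry a domain rich in arginine and serine and mark exons for the spliceosome. Against 10.3% lower and 14.6% higher calls over all genes, 4 of 11 SR genes fell (36.4%), 2 rose (18.2%) and 5 were not called. Their summed normalized counts were 14832 to 15376 in mdx libraries and 28442 to 28689 in wild-type libraries. Srsf3, the smallest SR protein and also an adaptor for mRNA export (chromosome 17, 29032673 to 29043366, mm10, plus strand; promoter above), had 897, 772 and 685 normalized counts in mdx libraries, against 5948 and 7085 in wild-type libraries. The group means were 785 ± 107 in mdx and 6516 ± 804 in wild type (SD, n = 3 and 2), with a log2 fold change of −3.05 (SE 0.21, limma adjusted p = 2.93e-05). Within the SR family this was the largest fall of a called gene, and it held in all 14 alternatives.

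Srsf7, the closest relative of Srsf3 in its RNA-binding domain, had 1394, 1217 and 1439 normalized counts in mdx libraries, against 5306 and 3311 in wild-type libraries. The wild-type values differed between themselves but both exceeded every mdx value (log2 fold change −1.64, SE 0.24, limma adjusted p = 0.00142). Srsf5, the most abundant SR gene per transcript length in wild type, had 2356, 1712 and 1976 in mdx libraries, against 5210 and 5766 in wild-type libraries (log2 fold change −1.46, SE 0.20, limma adjusted p = 0.000976). Both calls held in all 14 alternatives. Srsf1, the founding SR protein, had 1721, 2501 and 1577 in mdx libraries, against 3862 and 4318 in wild-type libraries (log2 fold change −1.11, limma adjusted p = 0.00868). Its call was lost without mdx 1 or 3 (limma adjusted p = 0.0622 and 0.058) and in CPM (0.051).

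Srsf2, which is nuclear and does not shuttle, rose, with 2587, 2759 and 2560 normalized counts in mdx libraries, against 1318 and 1813 in wild-type libraries. The mdx libraries were nearly equal and above both others, with a log2 fold change of 0.77 (SE 0.20, limma adjusted p = 0.025). Srsf2 lost its call when mdx 1, 2 or 3 was left out (limma adjusted p = 0.0796, 0.0872 and 0.0792), and without wild type 1 its value was 0.54. After the length and GC correction Srsf2 was at 0.63 and not called (0.0524), with the median of all genes at −0.35. Its exons overlap those of Mfsd11, with 307, 642 and 323 in mdx and 294 and 154 in wild type, and of Mettl23, with 66, 43 and 80 in mdx and 276 and 156 in wild type, both on the opposite strand.

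Srsf4 had 309, 249 and 433 normalized counts in mdx libraries, against 58 and 102 in wild-type libraries. It lay at a low level in wild type and rose by a log2 fold change of 2.04 (SE 0.51, limma adjusted p = 0.0189). Leaving out mdx 1, 2 or 3 ended the call (limma adjusted p = 0.0694, 0.0524 and 0.0876). After the length and GC correction Srsf4 was at 1.37 and not called (0.0689), with the median of all genes at −0.35. Per transcript length, Srsf2 stood at 1388 normalized counts per kilobase in mdx and 824 in wild type, and Srsf3 at 300 in mdx and 2489 in wild type. On this scale Srsf3 was above Srsf2 in wild type and below it in mdx.

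Srsf6, a relative of Srsf4, and Srsf11 had overlapping groups with log2 fold changes of −0.02 (95% interval −0.43 to 0.40) and 0.13 (−0.33 to 0.60). Srsf10, a splicing repressor when dephosphorylated, had 997, 816 and 700 normalized counts in mdx libraries and 1623 and 1170 in wild-type libraries, and did not pass (log2 fold change −0.73, limma adjusted p = 0.070) except without wild type 2 (−0.97, 0.0197) and after the length and GC correction (−1.10, 0.0111). Srsf9, a short SR protein, varied widely within mdx, with 138, 530 and 459 normalized counts, and had 319 and 373 in wild type (log2 fold change −0.09). Srsf12 was listed at 0, 5 and 58 in mdx libraries and at 101 and 22 in wild-type libraries, with overlapping groups.

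**Figure D2:**
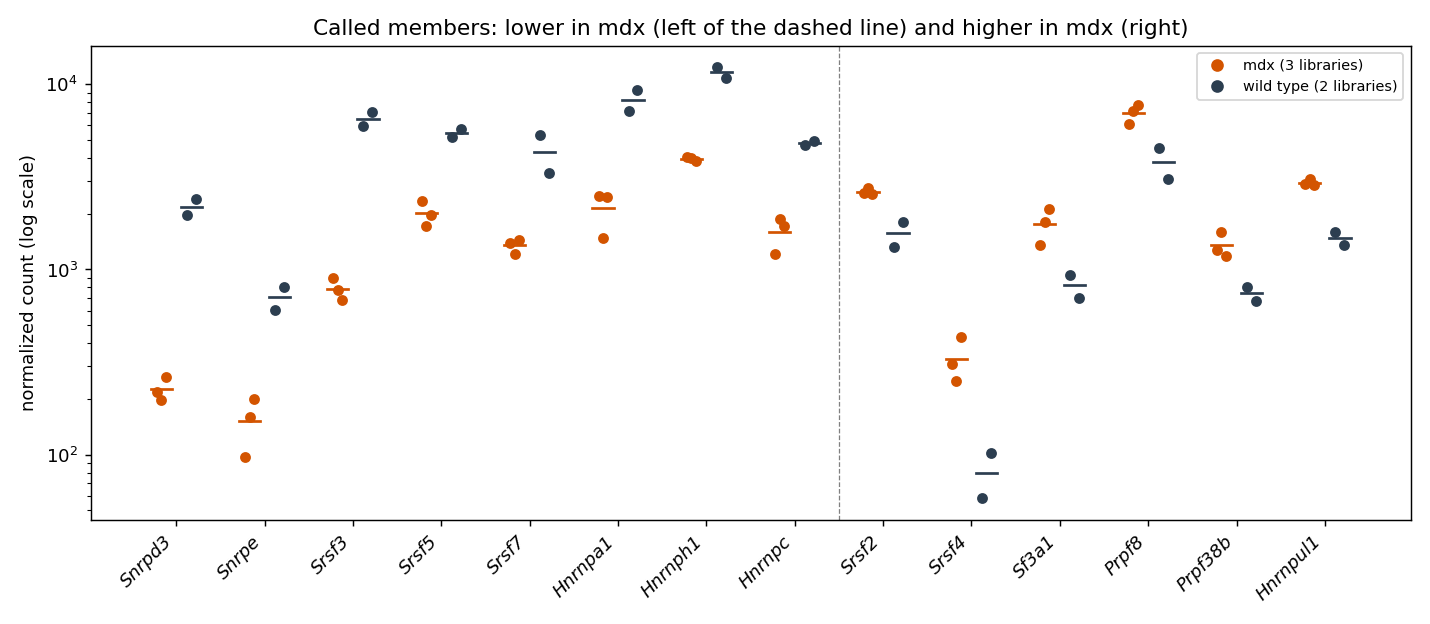
Normalized counts (log scale) of 14 called members in the 3 mdx libraries (orange, left of each pair) and the 2 wild-type libraries (dark, right of each pair), with group means as bars. Left of the dashed line stand 8 fallen genes and right of it 6 risen ones. In none of the 14 do the libraries of the genotypes overlap, but picking called genes favours this. Snrpd3 and Srsf3 show the widest gaps.

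The hnRNPs, abundant proteins that coat nascent RNA, gave the most lower calls of the families. The median level was 158 normalized counts over all tested genes and 2887 over the hnRNPs, and shares at matched levels were not computed. Over all tested genes 10.3% were lower and 14.6% higher. Of 19 hnRNPs, 11 fell (57.9%), 1 rose (5.26%) and 7 were not called, with a median log2 fold change of −0.93. Their summed normalized counts were 44397, 46100 and 44483 in mdx libraries, against 83498 and 84942 in wild-type libraries, so the family's total in mdx lay below wild type in every library. Hnrnpa1, a repressor of exon inclusion and an export factor (promoter above), had 2491, 1475 and 2473 normalized counts in mdx libraries, against 7143 and 9256 in wild-type libraries. It fell by 1.96 on the log2 scale (SE 0.26, limma adjusted p = 0.000883), the largest fall among the hnRNPs. Hnrnpa1 has many processed pseudogenes, and how reads that map to several places were counted is not given, so its level is uncertain.

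Hnrnph1, which binds runs of G in RNA, had 4069, 3988 and 3837 normalized counts in mdx libraries, against 12322 and 10847 in wild-type libraries. The mdx values lay within a narrow range far below the wild-type pair (log2 fold change −1.54, SE 0.15, limma adjusted p = 0.000203). Hnrnpc, whose tetramers bind runs of U, had 1207, 1878 and 1725 in mdx libraries, against 4683 and 4953 in wild-type libraries (log2 fold change −1.61, SE 0.23, limma adjusted p = 0.00121). Hnrnpa3, a relative of Hnrnpa1, had 1769, 1976 and 1768 in mdx libraries, against 4302 and 5758 in wild-type libraries, and fell by 1.44 on the log2 scale. The calls of Hnrnpa1, Hnrnph1, Hnrnpc and Hnrnpa3 held in all 14 alternatives.

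Among the members, the G-run binders Hnrnpf and Hnrnph3 fell with Hnrnph1. Hnrnpf had 237, 193 and 336 normalized counts in mdx libraries, against 659 and 766 in wild-type libraries (log2 fold change −1.51, SE 0.36, limma adjusted p = 0.0167), and its call was lost without mdx 1 or 2 (0.0629 and 0.0573). Hnrnph3 fell by 1.48 on the log2 scale (limma adjusted p = 0.030), a call lost without mdx 2, mdx 3 or wild type 2 (0.080, 0.0948 and 0.086).

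Hnrnpu, a scaffold attachment factor that binds chromatin and RNA and has the highest normalized counts of all members in wild type, had 6972, 7876 and 6004 in mdx libraries, against 12172 and 13297 in wild-type libraries. Its log2 fold change of −0.88 (SE 0.17, limma adjusted p = 0.00537) shrank to −0.09 after quantile normalization (0.760), and missed the threshold in CPM (−0.69, 0.0547). Hnrnpa2b1, the most abundant member per transcript length in both genotypes, fell by 0.96 on the log2 scale (limma adjusted p = 0.00522). Hnrnpk, which binds runs of C, fell by 0.93 (0.00525), Hnrnpdl by 1.21 (0.00142) and Hnrnpr by 1.21 (0.00315). After quantile normalization Hnrnpa2b1 and Hnrnpk were not called (limma adjusted p = 0.112 and 0.0799), and in CPM Hnrnpk was not (0.0641).

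Hnrnpul1, which resembles Hnrnpu and takes part in DNA repair, was the 1 hnRNP gene that rose. It had 2903, 3090 and 2852 normalized counts in mdx libraries, against 1591 and 1360 in wild-type libraries (log2 fold change 1.001, SE 0.18, limma adjusted p = 0.00478). Among the 7 risen members it alone stayed called without mdx 1, 2 or 3. Its value after the length and GC correction was 0.17 and not called (limma adjusted p = 0.496), with the median of all genes at −0.35. Its paralog Hnrnpul2 had 1943, 1942 and 1943 in mdx libraries and 1730 and 2136 in wild-type libraries, with a log2 fold change of 0.02 (95% interval −0.42 to 0.45). After that correction, with the median of all genes at −0.35, Hnrnpul2 turned to −0.84 and was called lower (limma adjusted p = 0.0153).

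Of the hnRNPs not called, Hnrnpm had 1545, 1788 and 2101 normalized counts in mdx libraries and 2375 and 2976 in wild-type libraries, without overlap (log2 fold change −0.56, limma adjusted p = 0.0845). Hnrnpm passed with wild type 1 left out (−0.73, 0.0347) and after the length and GC correction (−1.25, 0.00385). Hnrnpd, or AUF1, a factor of mRNA decay, had 862, 944 and 726 in mdx libraries and 1257 and 1076 in wild-type libraries (log2 fold change −0.47, limma adjusted p = 0.181), and passed after that correction (−1.19, 0.00458). Hnrnpab, Hnrnpl, Hnrnpll and Hnrnpa0, which has no intron, had log2 fold changes between −0.16 and 0.05, with overlapping groups. After the correction, with the median of all genes at −0.35, Hnrnpl and Hnrnpa0 were called lower (−0.62 and −0.74, limma adjusted p = 0.0206 and 0.0242).

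Most fallen members had transcripts of low GC content, a property the choice of members did not use. GC content was that of the longest principal transcript in GENCODE M21, whose median over the members was 46.4%. Of the 33 members below it, 19 fell and 1 rose, and of the 34 at or above it, 4 fell and 6 rose. The median log2 fold changes were −0.96 and −0.08. Srsf3 and Srsf7, both at 40.0% GC, fell, while Srsf4, at 56.8%, and Hnrnpul1, at 54.0%, rose. Prpf19, at 54.7%, fell all the same, and Snrpf, at 41.3%, rose. Spearman's rank correlation between GC content and log2 fold change was 0.37 over the 67 members, 0.72 over the 11 SR genes and 0.47 over the 19 hnRNPs. The points are genes measured in the same 5 libraries, so these are descriptions.

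All protein-coding genes off chromosomes X and Y leaned the same way. Below 46.4% GC, 16.0% of these genes fell and 11.7% rose, and at or above it 7.65% fell and 20.98% rose. The rank correlation over these 13327 genes was 0.21 for GC content and 0.24 for transcript length, while over the members it was 0.19 for length. Snrpf, which passed the filter only through mdx libraries, was the 1 member called higher after each library's trend with length and GC content was removed. After that step 32 members were lower and 1 was higher, against 17.7% and 8.03% of all genes. That step moved the median log2 fold change of all genes from 0.13 to −0.35 and that of the members from −0.47 to −0.85, so the gap between members and all genes was −0.60 before and −0.50 after it. Of the 23 fallen members 21 were still called after the step, the exceptions being Snrpe and Sf3b6. The rank correlation between GC content and log2 fold change over the members was still 0.33, and over all these genes 0.10. The part of base composition in the members' fall was not tested.

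**Figure D3:**
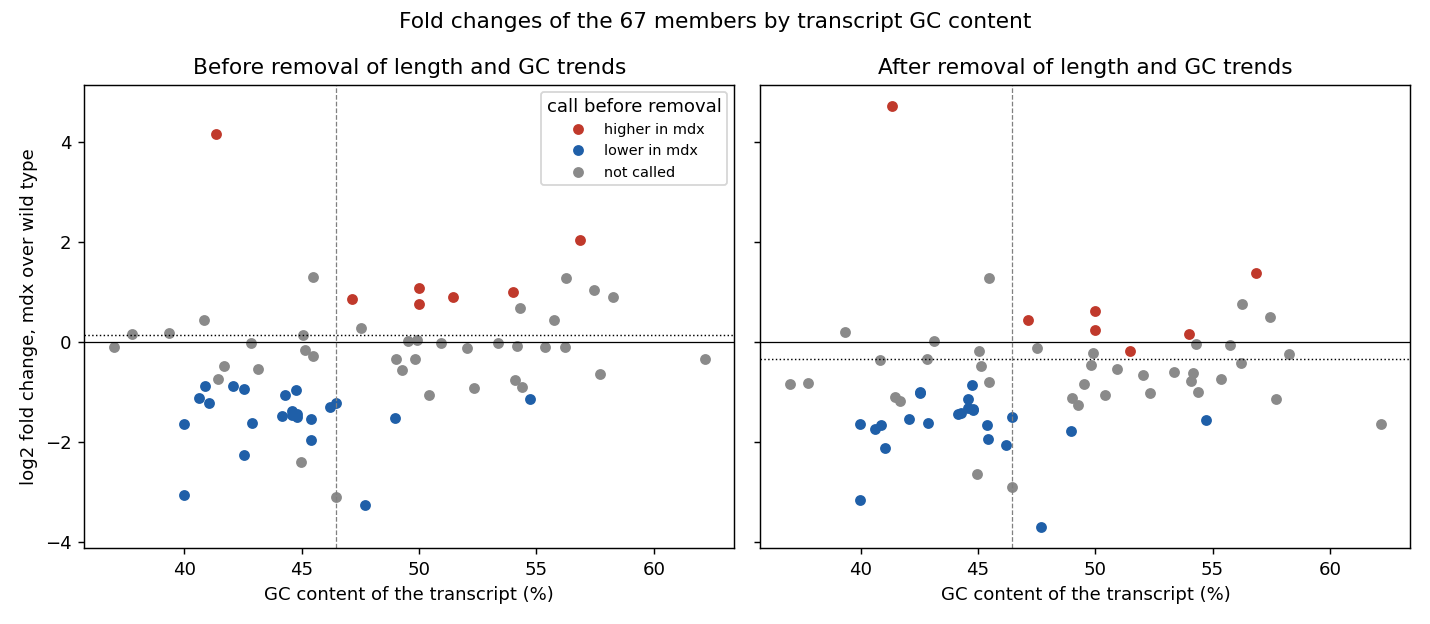
Log2 fold change (y axis, mdx over wild type) of the 67 members against the GC content of their transcript (x axis, %), before and after removal of each library's length and GC trends. Colours give the call before removal, the dashed line the median GC content (46.4%) and the dotted line the median of all tested genes (0.13 and −0.35). Most blue points, the fallen genes, lie left of the dashed line in both panels.

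The 38 members with a mean of at least 1000 normalized counts included 17 fallen and 5 risen ones, and the 29 below that mean 6 and 2. Shares over all genes at these levels were not computed, so these counts have no comparison. The median level was 1109 normalized counts over the members and 158 over all tested genes. Of all genes with a mean of at least 50, 15.1% were lower and 19.7% higher, against 10.3% and 14.6% of all tested genes. Spearman's rank correlation between wild-type level and log2 fold change was −0.35 over the members and −0.48 over the protein-coding genes, where the wild-type level enters both measures.

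Other genes of splicing were taken from lists written from general knowledge. Over 4 lists with 141 tested genes, 31 fell (22.0%) and 19 rose (13.5%), against 10.3% and 14.6% of all tested genes, with a median log2 fold change of −0.26. The share that rose was thus near that of all genes. Of 72 other spliceosome components 15 fell (20.8%) and 5 rose (6.94%), with a median log2 fold change of −0.35. Plrg1, a partner of Prpf19, had 365, 394 and 654 normalized counts in mdx libraries, against 1293 and 1569 in wild-type libraries (limma adjusted p = 0.00605). Snrnp48, of the minor spliceosome that removes rare introns, had 193, 112 and 190 in mdx libraries, against 638 and 656 in wild-type libraries (0.0080). Smu1, which helps activate the spliceosome, fell by 0.94 on the log2 scale (0.00878).

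Cwc22, which loads the exon junction complex, rose most in that list, with 11719, 5343 and 5245 normalized counts in mdx libraries, against 522 and 628 in wild-type libraries (log2 fold change 3.59, SE 0.34, limma adjusted p = 0.00015). The gene lies in a segment whose copy number differs between mouse strains, and strain is not given, so genotype and strain cannot be told apart for it. Rnps1, a partner of the exon junction complex, rose by a log2 fold change of 1.42 (limma adjusted p = 0.0218) and Wbp11, a partner of late spliceosomes, by 1.09 (0.0249). Both calls were lost without mdx 1, 2 or 3 (0.0735, 0.083 and 0.107 for Rnps1, and 0.0912, 0.0765 and 0.0708 for Wbp11). After the length and GC correction, with the median of all genes at −0.35, Rnps1 was called (1.23, limma adjusted p = 0.0343) and Wbp11 was not (0.62, 0.156).

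Among 45 other splicing regulators 13 rose and 13 fell (28.9% each, against 14.6% higher and 10.3% lower of all tested genes). Rbm24, which promotes muscle-specific exons, had 542, 729 and 777 normalized counts in mdx libraries, against 61 and 21 in wild-type libraries (log2 fold change 4.15, SE 0.53, limma adjusted p = 0.000753). Rbfox2, which binds GCAUG, had 4587, 5422 and 5130 in mdx libraries, against 2231 and 1592 in wild-type libraries (log2 fold change 1.42, limma adjusted p = 0.00125). Khsrp rose by a log2 fold change of 1.46 (0.000849). After the length and GC correction, with the median of all genes at −0.35, Rbfox2 and Khsrp were not called (0.38 and 0.28, limma adjusted p = 0.154 and 0.311). Of the fallen ones, Matr3, a nuclear matrix protein, had 2758, 3200 and 2919 in mdx libraries, against 7526 and 8758 in wild-type libraries (0.000448). Tra2b, an SR-like activator, fell by 1.59 on the log2 scale (0.00127) and Tardbp, encoding TDP-43, by 1.23 (0.00142).

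Of 7 kinases that phosphorylate SR proteins 2 fell and 1 rose (28.6% and 14.3%, against 10.3% and 14.6% of all tested genes). Clk1 had 3163, 2976 and 3119 normalized counts in mdx libraries, against 9365 and 14078 in wild-type libraries (log2 fold change −1.90, SE 0.20, limma adjusted p = 0.000262), and Clk4 fell by 1.31 on the log2 scale (0.0024). Dyrk1a rose by a log2 fold change of 0.94 (limma adjusted p = 0.0164), a call lost without mdx 1, 2 or 3 or wild type 2 (0.0705, 0.0734, 0.0571 and 0.0638) and after the length and GC correction (0.04, 0.912). Under that correction the median of all genes was −0.35. Of 17 genes of snRNP assembly 1 fell (5.88%) and 0 rose, 6 having an unadjusted p under 0.05. The fallen gene was Ncbp2, of the nuclear cap-binding complex, with 486, 300 and 275 in mdx libraries, against 1076 and 1353 in wild-type libraries (0.00489).

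Introns of some members hold snoRNAs, small RNAs that guide modification of other RNAs and are usually released from the spliced intron of a host gene. The 2 called ones are shown with the bases of their class in capitals, from GENCODE M21 (mm10): the ACA near the 3′ end of the snoRNA annotated as Gm22027, inside Sf3b4, and the first TGATGA (C box) and last CTGA (D box) of Snord111, inside Sf3b3.
Gm22027 (chr3:96176361-96176487, plus strand): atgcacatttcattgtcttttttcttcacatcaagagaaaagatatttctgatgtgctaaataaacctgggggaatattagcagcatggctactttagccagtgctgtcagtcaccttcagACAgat
Snord111 (chr8:110838528-110838616, minus strand): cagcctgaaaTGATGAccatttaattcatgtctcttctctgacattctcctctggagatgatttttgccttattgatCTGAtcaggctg
Gm22027 had 12, 0 and 0 normalized counts in mdx libraries, against 1128 and 1727 in wild-type libraries (limma adjusted p = 0.000931). Its host Sf3b4 had higher values in every mdx library than in either wild-type library, as for 28.2% of all tested genes. Sf3b4 was not called (limma adjusted p = 0.100). Snord111 had 21, 0 and 8 in mdx libraries, against 303 and 318 in wild-type libraries (limma adjusted p = 0.013). Both passed the filter on low values only through the wild-type libraries, where they are high, and their fitted fold changes depend on the added constant and are not given. The call of Snord111 was lost without mdx 3 (0.0624) and after the length and GC correction (−0.47 on the log2 scale, 0.805). Its host Sf3b3 had 1857, 2568 and 2837 in mdx libraries and 3412 and 2642 in wild-type libraries and was not called (log2 fold change −0.33, limma adjusted p = 0.320), but was called lower after that correction, as given above. An annotated exon of Sf3b3 overlaps Snord111 on the same strand. Gm25970, a snoRNA inside Prpf39, had 0, 0 and 14 in mdx libraries and 69 and 82 in wild-type libraries and was just outside the threshold (limma adjusted p = 0.0539), while Prpf39 itself had 1493, 1123 and 1044 in mdx libraries and 1355 and 1228 in wild-type libraries. Gm25970 too passed the filter only through wild type, and Prpf39 was called lower after the correction. The capture of short RNAs by the library kit was not tested.

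**Figure D4:**
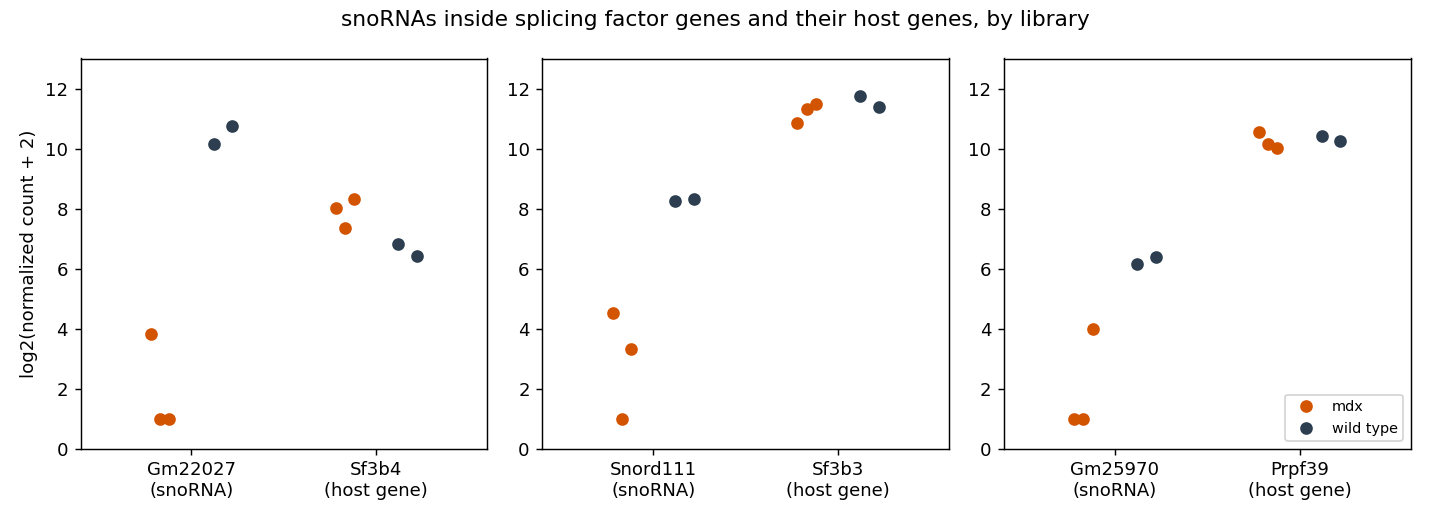
Level, as log2(normalized count + 2), of 3 snoRNAs and of the splicing factor genes that hold them, in the 3 mdx libraries (orange, left of each pair) and the 2 wild-type libraries (dark, right). Each snoRNA lies lower in all mdx libraries than in both wild-type libraries, and each passed the filter only through wild type. Sf3b4 lies higher in mdx but was not called, and the groups of Sf3b3 and Prpf39 overlap.

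Annotated exons of 23 members overlap a gene on the opposite strand and those of 7 a gene on the same strand, so that part of the members' counts may be shared with neighbours. Many splicing genes also have processed pseudogenes, and both limits apply to the levels given for all 67 members.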

How the data were processed

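RNA-seq was compared between 3 mdx and 2 wild-type libraries of satellite cells. Per the submitters' processing notes, STAR 2.6.1d, featureCounts 1.6.3 (Subread), DESeq2 1.18.1 and the build mm10 were used. The sources used here give no strand setting, multimapping rule or gene filter. The deposited values are whole numbers treated here as a score, namely normalized counts scaled by a size factor for each library: all 5 columns had one median ratio to the genes' means (1.035), and mdx 1 lacked 6 of the whole numbers between 1 and 30. Raw depth is therefore unknown, and no counting intervals are given.

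Values were analysed as log2(normalized count + 2) for 18199 genes with at least 10 in at least 2 libraries, with genotype as the only term in limma 3.58.1 (R 4.3.3), empirical Bayes with trend and robust settings. P-values are two-sided, Benjamini-Hochberg adjusted over all tested genes, threshold 0.05. Fold changes are differences of mean log2(normalized count + 2) and understate changes of low genes. A call means an adjusted p under the threshold. Snrpn's share was tested by exact permutation in Python 3.11.15. The fit was tested on simulated tables.

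Members and lists were chosen with earlier results of these data known. Values in every library are given, per family, for up to 4 called members in each direction with the largest change, the 2 most abundant, and up to 2 not called with the largest change, and for Snrpn and Snrpb. From the other lists up to 3 called genes per direction are named. Members outside this rule that are given by value (among them Snrpa, Sf3b3, Prpf39 and Hnrnpul2) and the 3 snoRNAs were chosen after their values were seen, and so was the split by GC content. Length and GC content are those of the longest principal transcript in GENCODE M21 (all 67 members matched, 45 with the deposited coordinates). The values of 1 member are not reported here, though counts and medians include it. Promoters come from RefSeq on GRCm38.p6 (58 members matched).

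Alternatives were pseudocounts of 0.5 and 10, no filter, a mean of at least 50, CPM, quantile normalization, removal of length and GC trends, limma without trend and robust, the replicate number as a block, and each library left out. Replicate numbers 1 and 2 occur in both genotypes.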

Additional observations from a re-analysis of the deposited data

How the results depend on the processing

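The count of fallen members (23) was 17 in CPM, 19 after quantile normalization, 32 after length and GC correction, 9 in limma without trend and robust and 12 under the replicate block, and 17 to 24 with 1 library left out. The count of risen members (7) was 1 after length and GC correction, 2 without trend and robust, 1 with the replicate block, 1 to 8 with 1 library left out, and 6 to 8 under the other alternatives. Calls over all genes were 1868 lower and 2659 higher in the main fit. They were 1150 and 1855 without trend and robust, and 860 and 1163 under the replicate block, so calls over all genes became fewer there too. The members' median log2 fold change was −0.85 after length and GC correction and −0.55 to −0.37 with 1 library left out. In the other splicing lists (19 higher, 31 lower), 7 higher and 53 lower were called after length and GC correction, 5 and 5 without trend and robust, 9 and 10 with the replicate block, 19 and 18 in CPM, and 10 to 19 and 16 to 34 with 1 library left out. The share of calls among members that were higher was 23.3%, and 3.03% after length and GC correction. For all genes it was 58.7% and 31.1%. CPM moved the median of all genes by 0.18, no filter by 0.14, quantile normalization by −0.13 and the length and GC correction by −0.48. Prpf8 (−0.17), Prpf4b (−0.35), Prpf40b (−0.24), Sf3b2 (−0.0445) and U2af2 (−0.0614) changed sign after that correction, under which the median of all genes was −0.35. Of 23 fallen members, 16 stayed called without any 1 library and 8 in all 14 alternatives. Of 7 risen ones these counts were 1 and 0. The difference in Snrpn's share was 1.38 to 3.48 percentage points with 1 library left out. What the replicate numbers stand for is not given. The deviations of same-numbered libraries correlated at −0.01 and −0.02. The deviations of the 2 wild-type libraries mirror each other, so this cannot show whether same-numbered libraries shared a batch. Causes of these shifts were not tested. With 1 wild-type library left, it is assumed to vary like the mdx libraries.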
